A study of Mus musculus with 6 samples.

Results

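Blood endothelial cells line the vessels of skeletal muscle, and 10 genes that mark them were followed across 6 RNA libraries. The genes were taken by symbol, as known markers, from the deposited table of 22036 genes, and the set was put together with earlier results of these data known. They are Pecam1, Cdh5, Cldn5 and Esam, which encode junction and adhesion proteins, Kdr and Flt1, which encode VEGF receptors, Eng, a co-receptor of the TGF-beta family, and Egfl7, Aqp1 and Ly6c1, which encode a secreted factor, a water channel and a surface protein. The tissue was whole skeletal muscle, with no muscle named in the labels, from PRR14 knockout (KO) mice that had received an adeno-associated virus (AAV). In 3 libraries the virus carried MEF2C-GFP, a transcription factor with green fluorescent protein, and in the other 3 it carried GFP alone. All 6 libraries came from the knockout, 1 month after injection, so that the GFP libraries are a virus control and not a wild type. The sources used here do not give the age, sex or strain of the mice, the promoter of the virus or the cells it reached. The labels do not say that replicates are separate animals, and p-values then measure only the spread between these libraries, which may be technical.

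As background, the endothelium is the inner cell layer of every blood vessel, and in muscle most of it forms capillaries along the fibres. Its cells are held together by VE-cadherin (Cdh5), claudin-5 (Cldn5), PECAM (Pecam1) and ESAM (Esam). They respond to VEGF-A through KDR, which carries most of the growth signal, while FLT1 binds VEGF-A tightly with weaker signalling and also exists as a secreted decoy. Endoglin (Eng) helps the receptor ACVRL1 to sense the circulating ligands of Gdf2 and Bmp10. Aquaporin-1 (Aqp1) carries water across capillary endothelium and is also a protein of red blood cells. Ly6c1 is high on mouse capillary endothelium, and Ly6C proteins are also found on monocytes and other marrow-derived cells.

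Upstream sequence is shown for Eng, Flt1 and Kdr, the receptor genes of the set, which include the markers with the lowest and the highest fold change, so that the regions can be read beside their values. Each run gives the 150 bases before the RefSeq start on the gene's own strand, 5′ to 3′, in build GRCm38.p6. Capitals mark GGAA on either strand (TTCC when it lies on the other), the core of the sites that ETS factors bind, and neighbouring matches can touch.
Eng, chr2:32646445-32646594, plus strand: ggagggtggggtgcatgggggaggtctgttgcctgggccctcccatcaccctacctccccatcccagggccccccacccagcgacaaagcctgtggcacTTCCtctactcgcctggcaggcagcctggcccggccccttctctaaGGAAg
Flt1, chr5:147726012-147726161, minus strand: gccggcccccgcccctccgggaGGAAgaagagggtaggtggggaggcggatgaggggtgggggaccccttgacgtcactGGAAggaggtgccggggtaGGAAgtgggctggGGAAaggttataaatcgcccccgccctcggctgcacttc
Kdr, chr5:75978456-75978605, minus strand: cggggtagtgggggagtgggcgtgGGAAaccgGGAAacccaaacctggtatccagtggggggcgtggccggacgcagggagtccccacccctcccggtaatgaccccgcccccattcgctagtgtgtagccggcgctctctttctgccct
Eng held 2 GGAA matches in its window, Flt1 held 4 and Kdr held 2. Such a short core is common: over the 250 bases before the start it was present in 93.4% of 32851 RefSeq promoters. RefSeq promoters were matched for 7 of the 10 genes, with 10 start sites in all, and Pecam1, Cdh5 and Esam were not matched. The MEF2 motif, searched on both strands, was in 0 of these 10 windows and in 2.9% of all promoters, and TATAAA was in windows of Flt1 and Ly6c1 and in 12.4% of all. These matches describe the letters of the windows and are not evidence of binding.

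Egfl7 also hosts a microRNA of the endothelium. The hairpin of Mir126a (chr2:26591357-26591429, plus strand) lies within Egfl7, where it overlaps an annotated exon. Its mature 3p product is printed with the seed, bases 2 to 8, in capitals.
mmu-miR-126a-3p: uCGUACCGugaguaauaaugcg
The level of the microRNA was not analysed here, and the Egfl7 values below are of the host gene's reads.

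The libraries were Nanopore PCR-cDNA libraries with 3370833 to 3900617 listed reads and 13001 to 13637 genes detected. Mef2c, the gene in the virus, stood at 234, 196 and 371 CPM, read counts scaled for library size and normalised, in the libraries labelled MEF2C and at 223, 261 and 236 CPM in the GFP libraries. Only replicate 3 of those labelled MEF2C lay above the GFP libraries. Directions are therefore given for the libraries labelled MEF2C, and the label is not checked by the Mef2c counts. Replicate 1 labelled MEF2C stood apart in marrow and blood genes. Its summed level of 8 neutrophil genes was 1219 CPM, against 4.98 and 2.90 CPM in replicates 2 and 3 labelled MEF2C and 2.96, 2.23 and 75.3 CPM in GFP replicates 1, 2 and 3. Its erythroid sum over 6 genes was 8639 CPM, while the other libraries labelled MEF2C had 4393 and 4855 CPM and the GFP libraries 3081 to 4167 CPM. Where leaving this library out turned the direction of a named gene, ended its call or moved its fold change by over 1.5 times, the value without it is also given.

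All 10 markers were detected in every library, with at least 23 reads each, and all 10 were among the 9229 genes tested. A further 20 pan-endothelial genes, such as Emcn, Cd93 and Robo4, were read beside them, and all passed the low-count filter. Passing it does not show which cells gave the reads. Sparcl1 alone stood at 263 to 313 CPM over the 6 libraries. The 20 genes summed to 809 to 865 CPM in the libraries labelled MEF2C and 759 to 830 CPM in the GFP libraries. Skeletal muscle genes far exceeded them, and 8 of these, Acta1 and Ckm among them, summed to 125720 to 141070 CPM in the libraries labelled MEF2C and to 149060 to 178060 CPM in the GFP libraries. In such bulk samples fewer endothelial cells and less of an RNA per cell cannot be told apart.

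Levels of the markers spanned more than 2 orders of magnitude per transcript length. Ly6c1 led with a mean of 506 CPM per kilobase over the 6 libraries, and its lowest library, at 399, lay above every library of the other markers. Egfl7 (50.4 CPM per kilobase) and Esam (50.2) followed and were not separable, with ranges of 41.7 to 56.3 and 38.8 to 63.6. Pecam1 at 30.2 and Aqp1 at 27.0 CPM per kilobase also overlapped each other, and Cldn5 at 18.7 reached into the range of Aqp1. A gap separated Cldn5, with no library under 14.6, from Cdh5, with none over 7.63 CPM per kilobase. Cdh5 (6.38), Flt1 (4.02), Eng (3.58) and Kdr (3.01) formed the low end, where each overlapped its neighbour. Length here is that of the longest GENCODE transcript, between 0.844 kilobases for Ly6c1 and 6.895 for Flt1. Full-length cDNA reads need not scale with it, and the order depends on the division. Without it, mean CPM over the 6 libraries ran from 12.2 for Eng to 427 for Ly6c1. On that scale Cldn5 (26.4) and Cdh5 (25.5) lay together, without the gap. Pecam1 (104) then had a higher mean than Egfl7 (94.0) and Esam (93.6).

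**Figure D1:**
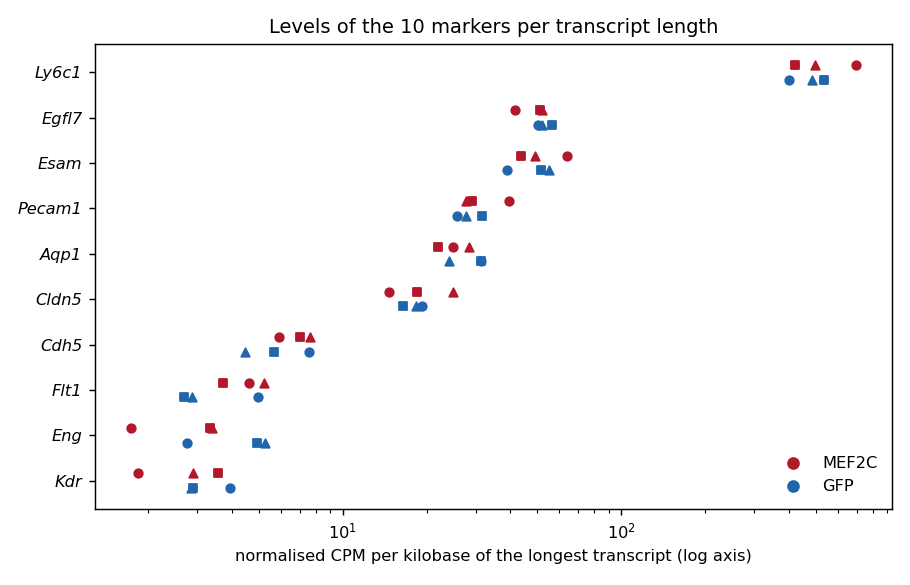
Normalised CPM per kilobase of the longest transcript (log axis) for each of the 10 markers, ordered by mean level, with 1 point per library; libraries labelled MEF2C are red and GFP libraries blue, and circles, squares and triangles are replicates 1, 2 and 3. Ly6c1 stands alone near 506, and Kdr, Eng, Flt1 and Cdh5 lie at the low end with overlapping libraries.

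Between the virus groups the blood endothelial markers did not separate. By edgeR 0 of the 10 were called at an adjusted p under 0.05, where 0.0758% of all tested genes were (7 of 9229), and 0 had an unadjusted p under 0.05, where 5.71% of all genes did. DESeq2, which called 0.293% of all genes, and limma-voom called 0 of the 10 as well, with 0 at an unadjusted p under 0.05 by either, although DESeq2 gave Eng no adjusted p. The groups overlapped for every marker, while 11.1% of all genes had groups that did not. Of the 10 log2 fold changes 6 were positive and 4 negative, from -0.61 for Eng to 0.36 for Flt1, with a median of 0.10 beside 0.01 over all tested genes. That median was -0.02 without replicate 1 labelled MEF2C, 0.01 without replicate 3 labelled MEF2C and 0.01 without GFP replicate 1. Across the 15 alternative settings and left-out libraries the lowest adjusted p of any marker was 0.535, for Flt1 without GFP replicate 1. With library totals in place of TMM scaling the median of all genes moved to 0.14 and that of the markers to 0.23, a gap of 0.09 under both scalings.

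**Figure D2:**
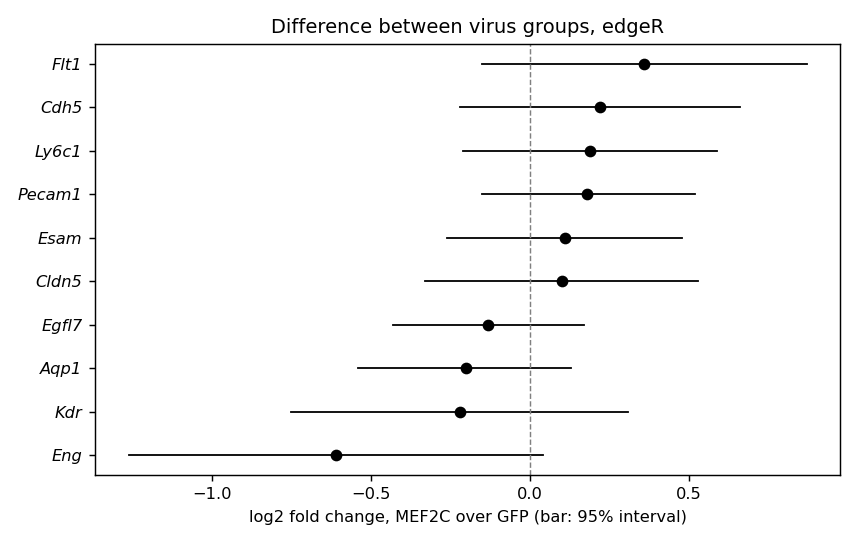
Log2 fold change of each marker, libraries labelled MEF2C over GFP libraries, with the 95% interval from edgeR (3 libraries per group). Every interval includes 0; Flt1 has the highest estimate at 0.36 and Eng the lowest at -0.61.

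The summed level of the markers was 1079, 803 and 908 CPM in replicates 1, 2 and 3 labelled MEF2C, against 798, 942 and 863 CPM in GFP replicates 1, 2 and 3. Ly6c1 alone made up 42.2% to 54.5% of that sum. Without Ly6c1 the other 9 summed to 490.5, 447 and 489 CPM in the libraries labelled MEF2C and to 462, 490.1 and 456 CPM in the GFP libraries, means of 475 ± 25.1 and 469 ± 18.3 CPM (SD, n = 3 per group). The means of this sum differed by less than the spread between replicates.

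Among the junction and adhesion genes, Pecam1 (ENSMUSG00000020717, GRCm38 chromosome 11, 106654217 to 106750628, minus strand) had 136, 100.4 and 95.6 CPM in replicates 1, 2 and 3 labelled MEF2C, against 88.6, 108 and 95.4 CPM in GFP replicates 1, 2 and 3. Replicate 1 labelled MEF2C was the highest and the other 5 libraries lay together. The log2 fold change was 0.18 ± 0.16 (SE; edgeR adjusted p = 0.989), with a 95% interval from 0.898-fold to 1.43-fold, and the log2 value was 0.00 without that replicate. Cdh5 (ENSMUSG00000031871, chromosome 8, 104101625 to 104144511, plus strand), the adherens junction cadherin of endothelium, had 23.6, 28.1 and 30.5 CPM in the libraries labelled MEF2C and 30.2, 22.7 and 17.8 CPM in the GFP libraries. GFP replicate 1 lay with the upper libraries labelled MEF2C, and the fold change of 0.22 ± 0.21 (edgeR adjusted p = 0.993) was 0.43 without GFP replicate 1 and 0.05 without GFP replicate 3 on the log2 scale.

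Cldn5 (ENSMUSG00000041378, chromosome 16, 18776847 to 18778262, plus strand, a single exon), the tight junction protein that seals capillaries, had 20.7, 26.1 and 35.1 CPM in replicates 1, 2 and 3 labelled MEF2C, against 27.3, 23.3 and 26.0 CPM in GFP replicates 1, 2 and 3. The libraries labelled MEF2C lay on both sides of the GFP libraries. Its log2 fold change was 0.10 ± 0.20 (edgeR adjusted p = 0.993) and turned to -0.12 without replicate 3 labelled MEF2C, while it was 0.26 without replicate 1. Esam (ENSMUSG00000001946, chromosome 9, 37528078 to 37538319, plus strand), an immunoglobulin-like adhesion protein of tight junctions, had 119, 81.2 and 91.7 CPM in the libraries labelled MEF2C and 72.3, 95.7 and 102 CPM in the GFP libraries. The highest library was again replicate 1 labelled MEF2C and the lowest was GFP replicate 1. The fold change of 0.11 ± 0.17 (log2; edgeR adjusted p = 0.993) turned to -0.07 without the first of these and to -0.04 without the second. Of 15 junction and adhesion partners, 12 were tested, 5 had a positive log2 fold change and 0 were called, with a median of -0.12. Jam2, a junctional adhesion molecule, was the member with the smallest p, at 32.1, 28.6 and 34.6 CPM in the libraries labelled MEF2C and 40.9, 36.7 and 36.3 CPM in the GFP libraries, without overlap (log2 fold change -0.26 ± 0.15, edgeR adjusted p = 0.928). Ctnnb1, the beta-catenin that binds VE-cadherin, followed at -0.20 ± 0.15 (adjusted p = 0.965), and at -0.11 without replicate 1 labelled MEF2C.

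**Figure D3:**
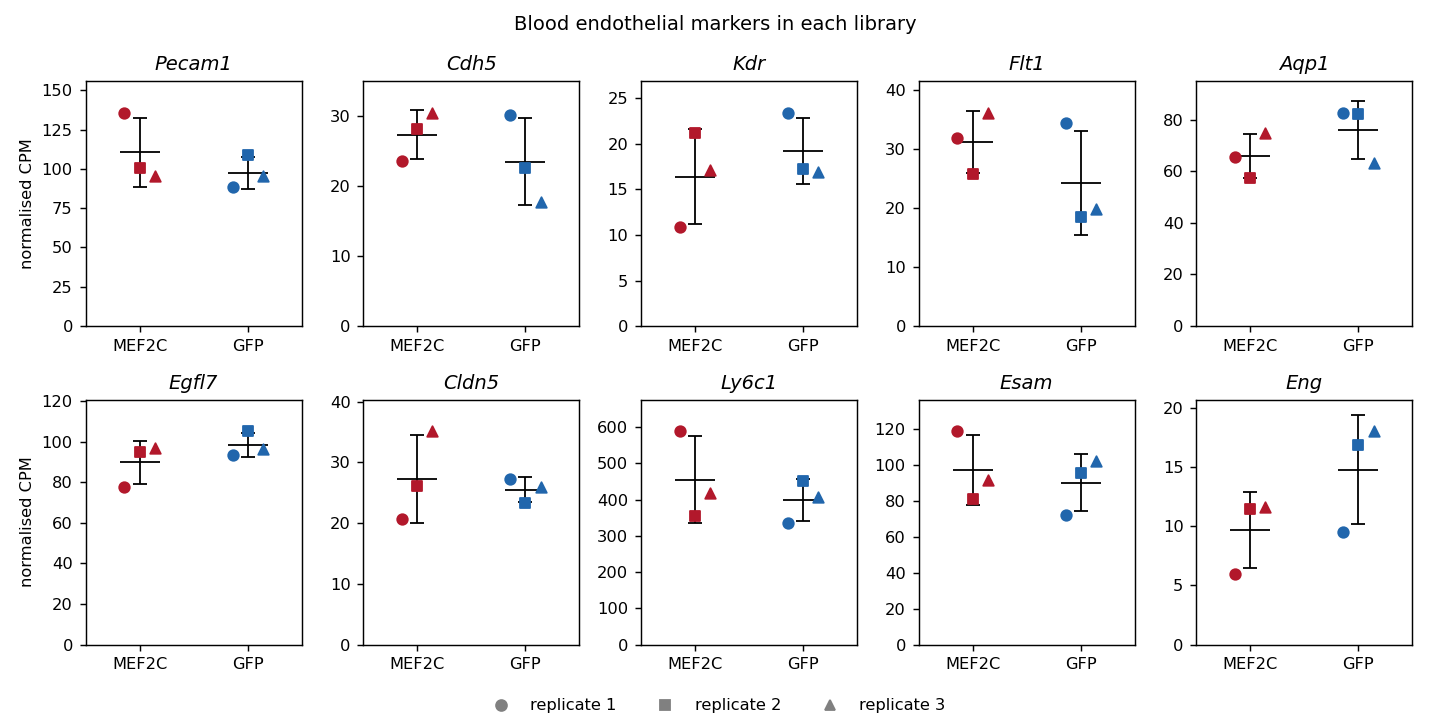
Normalised CPM of each marker in each library, with libraries labelled MEF2C in red on the left and GFP libraries in blue on the right of each panel; black bars are the group mean and SD (n = 3), axes start at 0, and symbols are replicates. The groups overlap in all 10 panels, and replicate 1 labelled MEF2C (circles) is the highest library for Pecam1, Ly6c1 and Esam and the lowest for Kdr, Eng, Egfl7 and Cldn5.

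The VEGF receptors had fold changes of opposite sign, neither of which passed the test. Kdr (ENSMUSG00000062960, chromosome 5, 75932827 to 75978458, minus strand) had 10.9, 21.2 and 17.2 CPM in replicates 1, 2 and 3 labelled MEF2C, against 23.4, 17.2 and 17.0 CPM in GFP replicates 1, 2 and 3. Only replicate 1 labelled MEF2C, with 42 reads, lay well below the rest. The log2 fold change was -0.22 ± 0.25 (edgeR adjusted p = 0.993), with a 95% interval from 0.594-fold to 1.24-fold, and -0.01 without that library. Leaving out single libraries moved it between -0.45, without replicate 2 labelled MEF2C, and -0.01. Flt1 (ENSMUSG00000029648, chromosome 5, 147561604 to 147726011, minus strand) had 31.9, 25.7 and 36.1 CPM in the libraries labelled MEF2C and 34.4, 18.5 and 19.9 CPM in the GFP libraries. GFP replicates 2 and 3 were the lowest libraries, whereas GFP replicate 1 stood among those labelled MEF2C. Its fold change was 0.36 ± 0.24 on the log2 scale (edgeR adjusted p = 0.944), with a 95% interval from 0.904-fold to 1.83-fold. Without GFP replicate 1 the estimate was 0.68, and without GFP replicate 2 it was 0.20, with adjusted p between 0.535 and 1 over all alternatives. Gene counts do not separate the membrane receptor of Flt1 from its secreted form.

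Set against each other per transcript length, Kdr stood at 0.397, 0.961 and 0.555 times Flt1 in replicates 1, 2 and 3 labelled MEF2C, against 0.793, 1.08 and 0.993 times in GFP replicates 1, 2 and 3. Replicate 2 labelled MEF2C lay within the GFP range, and the other two lay below it; the ratio was formed after the values were seen and has no test. Of the 8 VEGF ligands, neuropilins and Flt4, 7 were tested, 3 had a positive log2 fold change and 0 were called, with a median of -0.01. Nrp2, a neuropilin co-receptor, was at 0.75 ± 0.42 and Vegfb, a ligand of FLT1, at 0.34 ± 0.22 (edgeR adjusted p = 0.928 and 0.947). The angiopoietin and TIE genes, which steady the vessel wall, gave 2 positive log2 fold changes among 5 tested, a median of -0.06 and 0 calls. Angpt1 and Angpt2, the angiopoietin ligands, stood at -0.48 ± 0.38 and 0.29 ± 0.33 (adjusted p = 0.976 and 0.993), and at -0.72 and 0.10 without replicate 1 labelled MEF2C.

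Eng (ENSMUSG00000026814, chromosome 2, 32646595 to 32682669, plus strand) had the lowest fold change of the markers. It stood at 5.96, 11.5 and 11.6 CPM in replicates 1, 2 and 3 labelled MEF2C, against 9.48, 16.9 and 18.0 CPM in GFP replicates 1, 2 and 3. GFP replicate 1 lay below both upper libraries labelled MEF2C, so that the groups overlapped. Means were 9.68 ± 3.22 and 14.8 ± 4.64 CPM (SD, n = 3 per group), and the fitted difference was -0.61 ± 0.30 on the log2 scale (edgeR adjusted p = 0.904) with a 95% interval from 0.417-fold to 1.03-fold. The estimate was -0.37 without replicate 1 labelled MEF2C and -0.86 without GFP replicate 1, and the adjusted p lay between 0.557 and 1 over all alternatives. Eng had the fewest reads of the markers, 23 to 68 per library, where counting error alone gives a coefficient of variation of 16.0% in the libraries labelled MEF2C and 14.0% in the GFP libraries. The observed values were 33.3% and 31.4%. An exon of Fpgs on the opposite strand overlaps Eng by 61 bases, with 5 to 19 reads per library, and without stated strand use a few reads could be shared.

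Partners of endoglin were measured beside it. The ligand genes Gdf2 and Bmp10, made in other organs, had 0 reads in every library, which allows at most 0.957 CPM. Of the 14 pathway genes 11 were tested, 8 had a positive log2 fold change and 0 were called, with a median of 0.17. Acvrl1, the receptor that acts with endoglin, stood at 14.3, 17.4 and 10.4 CPM in the libraries labelled MEF2C and 14.8, 15.3 and 20.9 CPM in the GFP libraries (log2 fold change -0.28 ± 0.24, edgeR adjusted p = 0.982). Acvrl1 was named after its values were seen. Tgfbr1 and Tgfbr2, the TGF-beta receptors, were at 0.49 ± 0.25 and 0.43 ± 0.24 (adjusted p = 0.904 and 0.928), and Tgfbr1 was higher in all 3 libraries labelled MEF2C than in any GFP library.

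Egfl7 (ENSMUSG00000026921, chromosome 2, 26580014 to 26593120, plus strand), a factor that endothelium secretes into its matrix, was the steadiest marker. It had 77.7, 94.9 and 96.8 CPM in replicates 1, 2 and 3 labelled MEF2C, against 93.3, 105 and 96.5 CPM in GFP replicates 1, 2 and 3. Its highest library was 1.35 times its lowest, which was replicate 1 labelled MEF2C. The log2 fold change of -0.13 ± 0.14 (edgeR adjusted p = 0.993) turned to 0.01 under scaling by library totals, which put the median over all genes at 0.14, and it was -0.04 without replicate 1 labelled MEF2C. An exon of Agpat2, a fat-cell enzyme gene on the opposite strand, overlaps Egfl7 by 64 bases. Agpat2 had 319 reads in replicate 2 labelled MEF2C and 50 to 100 in the other 5 libraries, and Egfl7 did not stand out in that library.

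Aqp1 (ENSMUSG00000004655, chromosome 6, 55336432 to 55348555, plus strand) had 65.6, 57.5 and 74.8 CPM in replicates 1, 2 and 3 labelled MEF2C, against 82.7, 82.3 and 63.1 CPM in GFP replicates 1, 2 and 3. GFP replicate 3 lay among the libraries labelled MEF2C, and the log2 fold change was -0.20 ± 0.16 (edgeR adjusted p = 0.976). It was -0.33 without GFP replicate 3, -0.12 without replicate 2 labelled MEF2C and -0.07 with library totals. Its level was 65.6 CPM in replicate 1 labelled MEF2C, the library with the highest erythroid sum, and 82.3 CPM in GFP replicate 2, the one with the lowest. The part of red blood cells in the Aqp1 value was not tested.

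Ly6c1 (ENSMUSG00000079018, chromosome 15, 75044018 to 75048830, minus strand), a small surface protein anchored in the membrane by a lipid, had 588, 356 and 419 CPM in replicates 1, 2 and 3 labelled MEF2C, against 337, 452 and 407 CPM in GFP replicates 1, 2 and 3. Replicate 1 labelled MEF2C was far above the rest and GFP replicate 1 was the lowest. The log2 fold change was 0.19 ± 0.18 (edgeR adjusted p = 0.993) and turned to -0.05 without replicate 1 labelled MEF2C. Ly6c2, the copy of this gene expressed in monocytes and their marrow precursors, had 68, 3 and 5 reads in the libraries labelled MEF2C and 0, 0 and 13 in the GFP libraries. The longest transcripts of Ly6c1 and Ly6c2, of 844 and 2680 bases, aligned over a stretch of 595 bases only. In that stretch 585 bases were identical (98.3%), so that reads may be split between the transcripts of Ly6c1 and Ly6c2. The pattern of Ly6c2 followed the neutrophil sum, which was highest in the same library. The part of either in the Ly6c1 value was not tested.

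Within the set, replicate 1 labelled MEF2C split the markers. It held the highest level of 3 markers (Pecam1, Ly6c1 and Esam) and the lowest of 4 (Kdr, Eng, Egfl7 and Cldn5), while over all tested genes it held the highest level of 17.7% and the lowest of 17.9%. Replicate 3 labelled MEF2C was also the highest for 3 markers, and GFP replicate 1 was the lowest for 3. Among the 20 other pan-endothelial genes replicate 1 labelled MEF2C was the highest for 5 and the lowest for 7. Over the 88 tested genes of the 9 vessel lists given below, which include these 20, it was the highest for 19.3% and the lowest for 21.6%. Relative to the GFP mean, Ly6c1 was at 1.48, Pecam1 at 1.39, Esam at 1.32 and Flt1 at 1.31 in this library, against 0.403 for Eng, 0.567 for Kdr, 0.791 for Egfl7 and 0.813 for Cldn5. Pecam1, Ly6c1 and Esam summed to 843 CPM there, 538 and 606 CPM in replicates 2 and 3 labelled MEF2C, and 498, 656 and 605 CPM in GFP replicates 1, 2 and 3. The other 7 markers, Flt1 among them, summed to 236, 265 and 302 CPM in replicates 1, 2 and 3 labelled MEF2C and to 301, 286 and 258 CPM in GFP replicates 1, 2 and 3. This grouping was made after the values were seen and is a description. The same library had the high neutrophil and erythroid sums given above, and their part in the split was not tested. GFP replicate 1 was the reverse for 4 of these genes: it was the lowest library for Pecam1, Ly6c1 and Esam and the highest for Kdr. Eng and Flt1 were not reversed. Relative to the GFP mean, Eng was at 0.403 in replicate 1 labelled MEF2C and 0.640 in GFP replicate 1, and Flt1 at 1.31 and 1.42.

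**Figure D4:**
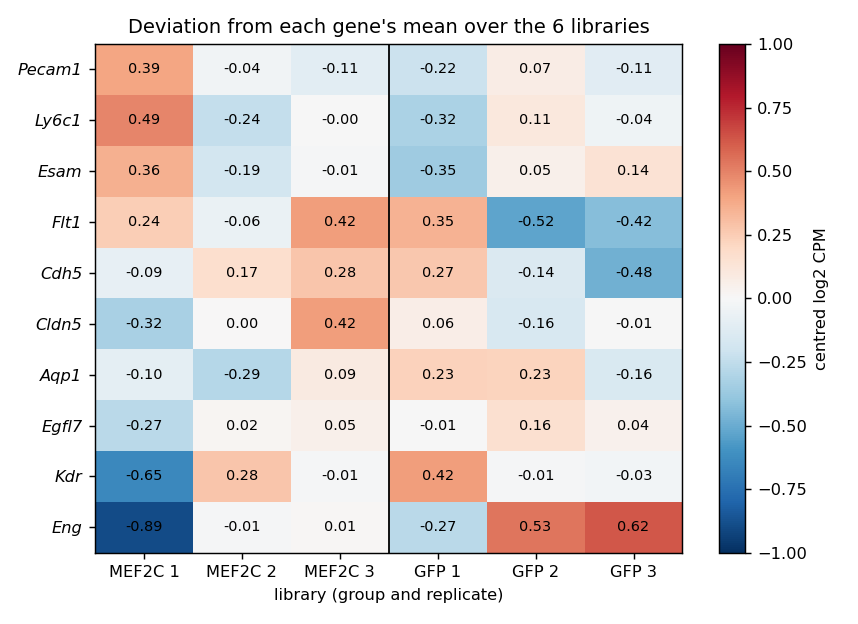
Log2 CPM of each marker (rows) in each library (columns), centred on the gene's mean over the 6 libraries; red is above and blue below that mean, and the black line divides libraries labelled MEF2C (left) from GFP libraries (right). In replicate 1 labelled MEF2C, Pecam1, Ly6c1 and Esam lie at 0.39, 0.49 and 0.36 and Kdr and Eng at -0.65 and -0.89.

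The mean profile of the 10 markers was nearly flat, between -0.08 and 0.11 in centred log2 CPM. The genes nearest to it, by root mean square difference over the 6 libraries among 6869 candidates, were Psmd1, Nipsnap2, Abce1, Nom1 and Nbdy, at 0.029 to 0.044. Psmd1 encodes a proteasome subunit and Abce1 a factor that recycles ribosomes. Candidates left out the markers and all other listed genes, and steady genes lie nearest to a nearly flat mean by construction. The markers themselves lay farther off. Egfl7 was at 0.105, Pecam1 at 0.237 and Eng at 0.490, with 3.54%, 44.7% and 90.4% of tested genes nearer.

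Other vessel genes were read from 9 lists with 103 genes, of which 88 were tested. Across them 49 log2 fold changes were positive and 39 negative, with a median of 0.06 and 0 calls by edgeR. An unadjusted p under 0.05 was reached by 5 (5.68%, beside 5.71% of all genes), of which Rgcc, S1pr1, Klf2 and Hes1 were higher in the libraries labelled MEF2C, as were 3.36% of all genes, and Podxl was lower, as were 2.35%. DESeq2 put 3 at that level, with 296 of 9224 genes over the whole table. The groups did not overlap for 10 (11.4%, beside 11.1% of all genes), with 6 higher, beside 5.75% of all genes, and 4 lower, beside 5.33%. Without GFP replicate 2 the count of 5 was 2, where the count over all genes was 385 of 9732, against 527 of 9229 with every library.

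Capillary transport genes gave 7 positive log2 fold changes among 11 tested, with a median of 0.05 and 0 calls. Rgcc, a cell-cycle regulator found in capillary endothelium, stood at 169, 118 and 120.0 CPM in replicates 1, 2 and 3 labelled MEF2C, against 78.2, 46.3 and 90.6 CPM in GFP replicates 1, 2 and 3 (log2 fold change 0.92 ± 0.25, edgeR adjusted p = 0.665). All 3 libraries labelled MEF2C lay above the GFP libraries. Plvap, the diaphragm protein of fenestrated capillaries, was at 0.43 ± 0.39 (adjusted p = 0.993). Among the 20 other pan-endothelial genes 11 were positive, with a median of 0.08 and 0 calls. S1pr1, the sphingosine phosphate receptor that tightens junctions, stood at 90.9, 64.2 and 60.7 CPM in the libraries labelled MEF2C and 49.2, 51.7 and 50.4 CPM in the GFP libraries (log2 fold change 0.51 ± 0.17, edgeR adjusted p = 0.684), and its fold change was 0.30 without replicate 1 labelled MEF2C. Podxl, a sialomucin of the luminal surface, was lower without overlap, at 17.9, 25.9 and 23.0 CPM in the libraries labelled MEF2C and 29.0, 32.5 and 28.9 CPM in the GFP libraries (-0.44 ± 0.18, adjusted p = 0.842).

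The Notch list, which guides arterial fate and sprouting, had 5 of 8 genes tested, 3 positive log2 fold changes, a median of 0.04 and 0 calls. Hes1, a Notch target, was at 0.48 ± 0.20 and Dll4, the ligand of tip cells and arteries, at -0.55 ± 0.33 (edgeR adjusted p = 0.841 and 0.928), the second at -0.32 without replicate 1 labelled MEF2C. Of 12 endothelial transcription factors 10 were tested, 6 were positive and 0 were called, with a median of 0.07. Klf2, a factor induced by blood flow, stood at 4.40, 6.72 and 12.6 CPM in the libraries labelled MEF2C and 3.56, 4.15 and 4.51 CPM in the GFP libraries, where replicate 1 labelled MEF2C overlapped the GFP range (log2 fold change 0.96 ± 0.38, edgeR adjusted p = 0.808). Fli1, an ETS factor, was at 0.48 ± 0.28 (adjusted p = 0.928). Arterial and venous genes had 7 of 10 tested, 4 positive, a median of 0.06 and 0 calls, with Sema3g at 0.48 ± 0.36 and Fbln5 at 0.21 ± 0.17 (adjusted p = 0.971 and 0.976), where Fbln5 was at 0.13 without replicate 1 labelled MEF2C.

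**Figure D5:**
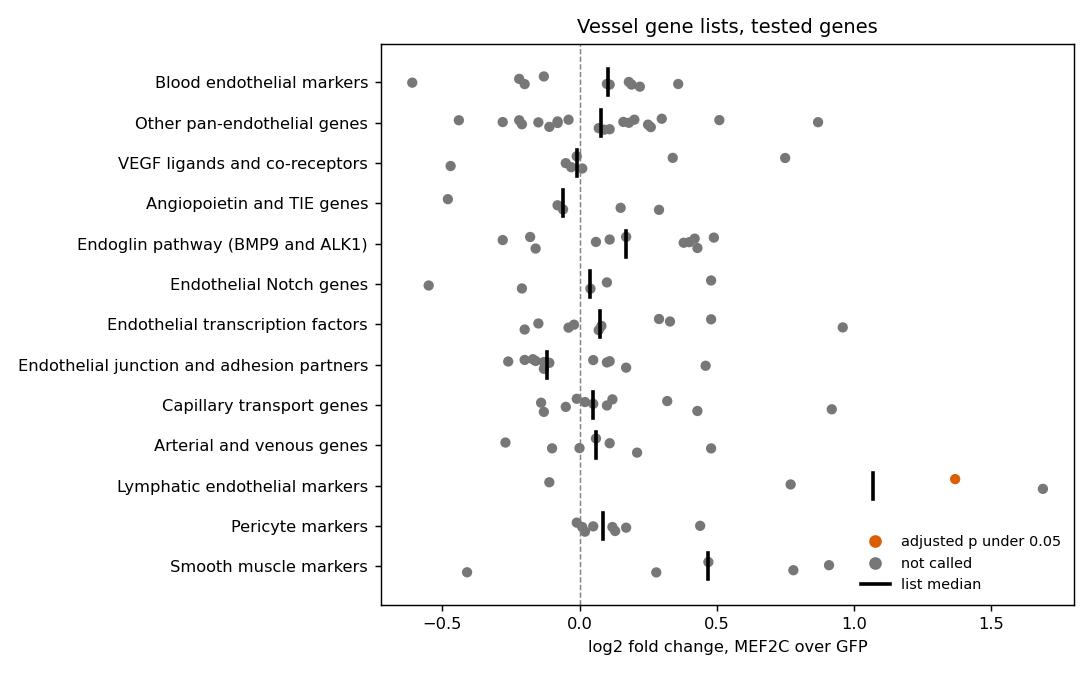
Log2 fold change, libraries labelled MEF2C over GFP libraries, for every tested gene of the blood endothelial markers and 12 other vessel lists; each point is a gene, the black bar is the list's median, and orange marks an edgeR adjusted p under 0.05. The blood endothelial markers spread from -0.61 to 0.36 around 0.10, and the 1 called gene is Ccl21a among the lymphatic markers.

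Cells next to the blood endothelium were read in the same way. Lymphatic markers had 4 of 6 genes tested, 3 positive log2 fold changes and a median of 1.07, and Ccl21a was the 1 called gene (1.37 ± 0.21, edgeR adjusted p = 0.0428). That call held under 5 of 15 alternatives, while the estimate stayed between 1.19 and 1.69. Its adjusted p was 0.115, 0.178 and 0.0965 without replicates 1, 2 and 3 labelled MEF2C, and 0.0716, 0.00429 and 0.443 without GFP replicates 1, 2 and 3. Over all 15 it ranged from 3.35e-07, with no low-count filter, to 0.443. Ccl21a shares near-identical copies in the mouse genome, which makes its count uncertain. The lymphatic sums were 112 to 150.02 CPM in the libraries labelled MEF2C and 55.1 to 79.4 CPM in the GFP libraries, without overlap. Ccl21a alone gave 77.2 to 94.3 CPM of the former and 24.6 to 45.9 CPM of the latter. Of the 4 tested lymphatic genes 3 were higher without overlap, beside 5.75% of all genes. Besides Ccl21a these were Mmrn1, at 3 to 28 reads per library, and Lyve1, at 39 to 127. Their log2 fold changes were 1.69 ± 0.40 and 0.77 ± 0.24 (edgeR adjusted p = 0.274 and 0.677), and Pdpn stood at -0.11 ± 0.27. Mmrn1, Lyve1 and Pdpn were named after their values were seen and were not read under other settings. The sums of the blood endothelial markers overlapped at 803 to 1079 and 798 to 942 CPM. Sums without overlap were not particular to the lymphatic list. Those of the smooth muscle (511 to 628 against 393 to 503 CPM), erythroid, and arterial and venous lists were also higher without overlap. Those of the junction and adhesion partners and of the skeletal muscle genes were lower without overlap, and the sums of the remaining lists overlapped. Pericyte markers, of the cells that wrap capillaries, were positive in 7 of 8 with a median of 0.09, and Higd1b and Pdgfrb were at 0.44 ± 0.20 and 0.12 ± 0.17 (adjusted p = 0.872 and 0.993). Smooth muscle markers were positive in 4 of 5 with a median of 0.47, and Myh11 and Tagln were at 0.78 ± 0.16 and 0.47 ± 0.15 (adjusted p = 0.126 and 0.684), without overlap between the groups for either. In both lists 0 genes were called. Whether the blood endothelial and lymphatic markers differ in their change was not tested.

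Markers of further cell types gave 0 called genes. All 5 tested erythroid genes of 6 had positive log2 fold changes, with a median of 0.66, and Hba-a2 and Hbb-bs, both globin genes, stood at 0.71 ± 0.27 and 0.66 ± 0.26 (edgeR adjusted p = 0.856 for both), and at 0.34 and 0.31 without replicate 1 labelled MEF2C. Monocyte and macrophage sums were 281 to 401 CPM in the libraries labelled MEF2C and 204 to 395 CPM in the GFP libraries, with 4 of 6 tested genes positive and Csf1r and Adgre1 at 0.19 ± 0.20 and -0.23 ± 0.32 (adjusted p = 0.993 for both), and at 0.31 and -0.05 without replicate 1 labelled MEF2C. Only S100a8 of the 8 neutrophil genes and Pf4 of the 6 platelet genes were tested, at 3.79 ± 2.71 and 0.25 ± 0.15 (adjusted p = 0.976 and 0.928). Pf4 had 284 to 521 reads per library. The other platelet genes had 0 to 4, apart from Ppbp with 49 in replicate 1 labelled MEF2C. Whether the Pf4 reads came from platelets was not tested. S100a8 stood at 563, 2.99 and 1.21 CPM in replicates 1, 2 and 3 labelled MEF2C, against 1.19, 1.91 and 36.3 CPM in GFP replicates 1, 2 and 3, and without replicate 1 labelled MEF2C its log2 fold change turned to -2.68. Fibroblast genes were positive in 3 of 6, with Col1a1 and Col1a2, of type I collagen, at 0.29 ± 0.17 and 0.22 ± 0.15 (adjusted p = 0.928 and 0.951). Adipocyte genes were positive in 5 of 6 tested, with a median of 0.73 and Adipoq and Lep, both fat-cell hormones, at 0.94 ± 0.38 and 0.73 ± 0.46 (adjusted p = 0.859 and 0.936). The adipocyte sum was 1401 CPM in replicate 2 labelled MEF2C, against 581 and 899 CPM in replicates 1 and 3. It was 476 to 713 CPM in the GFP libraries. Schwann cell genes were negative in 4 of 4 tested, with Prx and Mbp, of the myelin sheath, at -0.78 ± 0.34 and -0.35 ± 0.19 (adjusted p = 0.856 and 0.928). Skeletal muscle genes were negative in 7 of 8, with a median of -0.21 and Acta1 and Atp2a1, of the thin filament and the calcium pump, at -0.39 ± 0.13 and -0.36 ± 0.12 (adjusted p = 0.715 and 0.749). Among these lists the groups did not overlap for 4 erythroid genes, all higher, beside 5.75% of all genes. They also did not overlap for 4 skeletal muscle genes and 1 Schwann cell gene, all lower, beside 5.33% of all genes. The part of these cell types in the values of the blood endothelial markers was not tested.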

How the data were processed

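Each gene's reads were given as counts in the deposited table, per the file headers, for 6 skeletal muscle libraries, 3 labelled MEF2C and 3 labelled GFP, together with the CPM of the authors, which are scaled to all reads of a library and served only to recover library totals (95.6% to 96.4% of reads were in listed genes). Per the submitters' processing notes minimap2, GRCm38 and DESeq2 1.6.3 were used, without roles. The counter, annotation and strand use were not given in the sources used here. Of 22066 rows, 30 named no gene, held 0 counts and were left out.

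All genes were tested with edgeR 4.0.16 (R 4.3.3), by the robust quasi-likelihood test after filtering by group and TMM scaling, with Benjamini-Hochberg adjustment over 9229 genes and calls at an adjusted p under 0.05. The design had no covariate. Standard errors come from the F statistic, and intervals are at 95%. Normalised CPM are on TMM-scaled listed totals, where a count of 0 allows 3 reads, or 0.726 to 0.957 CPM. Reads carry no molecular identifiers, so that floors cover counting error only. Annotation and transcript lengths came from GENCODE vM21 (GRCm38), with 22022 identifiers matched, and sequences from RefSeq (GRCm38.p6).

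Alternatives were DESeq2 1.42.0 (size factors and Wald test), limma-voom (limma 3.58.1), library totals, no low-count filter or a strict one (1 CPM in 3 libraries and a mean of 20 reads), non-robust dispersion, a replicate block, a loess correction on transcript length (span 0.3), and each library left out. The count over the 9 vessel lists and the gap between medians under these settings, Ccl21a under each setting, and the other named genes without replicate 1 labelled MEF2C were added after seeing the data. The 10 markers and the 22 other lists were chosen with earlier results of these data known. The text names all markers, the called genes of each list or else the 2 with the smallest unadjusted p, and the 5 genes nearest to the mean marker profile. Mmrn1, Lyve1 and Pdpn were also named, after their values were seen, and were not read under other settings. The fits were tested on simulated data.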

Additional observations from a re-analysis of the deposited data

How the results depend on the processing

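The count of 7 genes called over the whole table became 35 with no low-count filter, 3 with the strict filter, 27 with the DESeq2 Wald test, 3 with limma-voom, 0 with non-robust dispersion (557 at an unadjusted p under 0.05) and 2 with the replicate block. Leaving out single libraries gave 0 to 22 calls. None of the 10 markers was called under any of the 15 alternatives. The count of markers with an unadjusted p under 0.05, which was 0, became 1 with library totals (Pecam1; 770 of 9229 over all genes), 1 with no low-count filter (Eng; 872 of 15334), 1 with the replicate block (Eng; 436 of 9229), and 0 to 2 with a library left out, where the 2 were Eng and Flt1 without GFP replicate 1 (653 of 9562). The median log2 fold change of the markers, 0.10, was 0.23 with library totals and -0.02 to 0.16 with a library left out. Directions reversed for Cldn5 without replicate 3 labelled MEF2C (-0.12), Egfl7 with library totals (0.01), Esam without replicate 1 labelled MEF2C (-0.07) and without GFP replicate 1 (-0.04), and, without replicate 1 labelled MEF2C, for Ly6c1 (-0.05), Ly6a (-0.11) and S100a8 (-2.68). With a library left out, Cldn5 ran from -0.12 to 0.26, Esam from -0.07 to 0.22 and Ly6c1 from -0.05 to 0.33. The cause was not tested. Aqp1, Cdh5, Eng, Flt1 and Kdr kept their sign under all 15, and the estimate for Pecam1 ran from 0.00 to 0.31. For the replicate block, libraries with the same number did not deviate together (correlations of -0.23, 0.05 and -0.25 over tested genes), and 0 of the 3 libraries labelled MEF2C correlated best with its own number. The count of 5 vessel-list genes at an unadjusted p under 0.05, added after seeing the data, ran from 2 to 7. Depth limits Eng most, with 23 to 68 reads.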

Other observations

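The other aquaporins that were read lay below Aqp1 in every library. Of 7 other aquaporins, Aqp3 and Aqp8 had 0 reads in every library, and 3 were tested. Aqp4, the water channel of the fast-fibre membrane, stood at 8.29, 9.46 and 15.0 CPM in replicates 1, 2 and 3 labelled MEF2C, against 8.59, 13.7 and 18.0 CPM in GFP replicates 1, 2 and 3. Its log2 fold change was -0.30 ± 0.30 (edgeR adjusted p = 0.993), and -0.15 without replicate 1 labelled MEF2C. Aqp11, an aquaporin of intracellular membranes, had 16, 20 and 18 reads in the libraries labelled MEF2C and 5, 7 and 8 in the GFP libraries, without overlap, a log2 fold change of 1.20 ± 0.36 that did not pass the test (edgeR adjusted p = 0.659). Neighbours of Ly6c1 in its family, Ly6a and Ly6e, differed by 0.01 ± 0.16 and 0.00 ± 0.16 (log2; adjusted p = 0.997 and 0.998), and by -0.11 and -0.06 without replicate 1 labelled MEF2C. GFP replicate 1 was the lowest library for both, as it was for Ly6c1.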
